A study of Drosophila melanogaster with 72 samples.

Results

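The genes described here are the glutathione transferases of the fly classes delta, epsilon, omega, sigma, theta and zeta, and the UDP-glycosyltransferases listed under Ugt symbols. They were chosen by symbol alone: the 35 rows that start with GstD, GstE, GstO, GstS, GstT or GstZ and a digit, and the 17 rows that start with Ugt and a digit. Together they are 52 of the 13898 genes listed. The rule used no measured value, but the set was picked with earlier results of these libraries known, and Ugt35b was singled out for its course over the day. A further 18 UDP-glycosyltransferases listed under other symbols were kept as a separate list.

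RNA of whole brains of Drosophila melanogaster was measured in 72 libraries, 3 for each of 24 groups, and each library pooled 15 brains. The shaken groups were iso31 flies, a laboratory strain, given vortexer vibration for 3, 6 or 12 h and dissected at zeitgeber time 0 (ZT0; zeitgeber time counts hours from lights on). Undisturbed iso31 flies in a light/dark cycle at 25 °C were dissected at ZT0, 4, 8, 12, 16 and 20. The other 15 groups came from 5 lines, each with a different GAL4 driver, a yeast transcription factor expressed in chosen neurons: R65H02, R21H11, HC (hot cell in the titles), R60F09 and R85C10. Each line had a group with GAL4 and UAS-TrpA1, a cation channel opened by warmth, shifted to 29 °C (called TrpA1 29C). Its controls were GAL4 flies without the channel at 29 °C (GAL4 control 29C) and flies of the activated genotype kept at 21 °C (TrpA1 21C). In R65H02, R21H11, HC and R60F09, which the labels describe as wake-promoting, the shift lasted 3 h and ended at ZT0. In R85C10, which the protocol describes as sleep-promoting, it lasted 12 h of the day and ended at ZT12. The titles of the R85C10 samples instead name sleep deprivation, and the protocol was followed here. In the labels used here no sleep recording is attached to a library, and the neurons driven by each GAL4 are not named.

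Glutathione transferases join the tripeptide glutathione to reactive molecules such as lipid peroxidation products and insecticides, and some act as peroxidases or isomerases. UDP-glycosyltransferases attach a sugar from a UDP-sugar donor to small lipophilic molecules, which makes them easier to export. In insects both families have grown by tandem gene duplication, and several members respond to oxidants and foreign chemicals through the transcription factor CncC, its partner Maf-S and their inhibitor Keap1. Both enzyme types are known in insects from glia and sensory organs as well as from the gut and fat body, and among their substrates are lipids, hormones, odorants and toxins.

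Total counts per library ran from 4175580 to 13435800. The smallest difference between replicates, a chi-square per gene of 2.72, was above the sampling noise of 1, so no pair was the same library. Markers of neurons, with repo and alrm among those of glia, were present in all groups. The 13 mitochondrial protein genes took 4.13%, 6.38% and 4.26% of counts after 3, 6 and 12 h of shaking, 2.62% in undisturbed ZT0 brains and 4.82% at ZT20. The TrpA1 transcript was above the GAL4 control in every TrpA1 29C group. It was 26.3 ± 2.05 CPM in HC TrpA1 29C, but 13.7 ± 1.76 CPM in the group labelled HC TrpA1 21C, near the 11.5 ± 2.07 CPM of HC GAL4 control 29C (SD, n = 3 each; CPM are counts scaled to a library total of 1e+06 with TMM). Results against that 21 °C group rest on a control whose genotype this transcript did not set apart. The level of the TrpA1 transcript also differed among lines. Its mean in TrpA1 29C was 67.9 CPM in R65H02, 37.0 in R60F09, 24.5 in R21H11 and 132.7 in R85C10. In R85C10 TrpA1 21C the mean was 299.5 CPM, above that of the activated group. The part of this level in the differences among lines was not tested. The labels do not say whether replicates were separate cultures, so p-values measure only the spread between these libraries.

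Most of the RNA of both families came from a few genes. In undisturbed ZT0 brains the glutathione transferases summed to 1500 TPM (a level corrected for transcript length and scaled to a total of 1e+06 a library) and the Ugt genes to 472.6 TPM. There, 21 members stood at 10 TPM or more, 15 between 1 and 10 TPM and 16 below 1 TPM, and each of the 52 had a count in some library. The leading delta member was GstD1, an enzyme known for breaking down DDT and for its response to oxidants, at 448.3 ± 61.1 TPM (SD, n = 3, as for the levels that follow). The leading Ugt gene was Ugt35b at 382.1 ± 52.9 TPM. In the epsilon class GstE12 led with 176 ± 20.8 TPM, ahead of GstE2 at 156.5 TPM. The omega member GstO2 had 78.8 ± 6.39 TPM, the theta member GstT1 42.1 ± 2.72 TPM, the sigma member GstS1, which in flies acts on the lipid peroxidation product 4-hydroxynonenal, 36.6 ± 3.39 TPM, and the zeta member GstZ2 28.7 ± 3.61 TPM. Zeta enzymes are known as maleylacetoacetate isomerases of tyrosine breakdown.

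**Figure D1:**
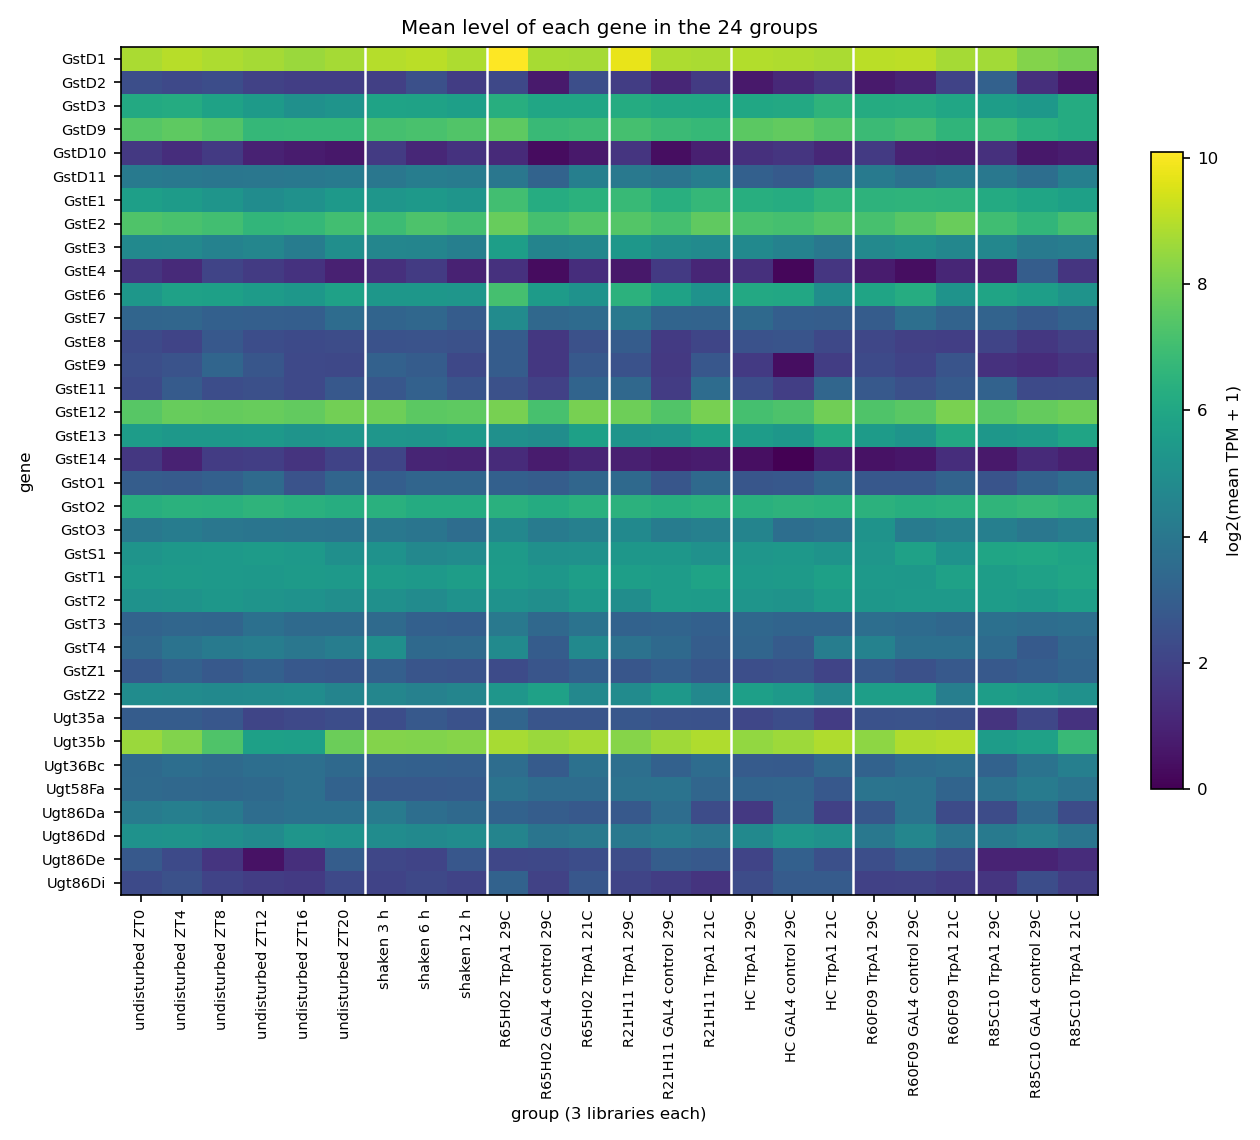
Mean level of the 36 members with a mean of at least 1 TPM, as log2(mean TPM + 1), in each of the 24 groups of 3 libraries. Rows are genes, columns are groups, and white lines part the experiments and the 2 families; Ugt35b is darkest at ZT12, ZT16 and in the R85C10 groups at 29 °C, and GstD1 is brightest in R65H02 TrpA1 29C.

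The members differed widely in how far their group means spread. GstO2 hardly moved, with group means between 73.0 and 104.7 TPM, a 1.43-fold range. Over the 72 libraries GstO2 had a lowest, median and highest level of 66.4, 84.7 and 107 TPM, and GstT1 of 30.9, 45.6 and 61.95 TPM. GstE12 had 128, 203 and 321 TPM, lowest in R65H02 GAL4 control 29C and highest in R60F09 TrpA1 21C, and GstS1 had 24.7, 39.0 and 80.1 TPM. GstZ2 had 13.7, 29.6 and 59.8 TPM, with its lowest library in R60F09 TrpA1 21C and its highest in the R60F09 GAL4 control. Next to these, the leading delta and Ugt genes ranged further over the libraries, GstD1 from 227.8 to 1202 TPM and Ugt35b from 39.5 to 575.2 TPM. The group means of GstD1 ran from 262 TPM in R85C10 TrpA1 21C to 1088 TPM in R65H02 TrpA1 29C, a 4.16-fold range. Those of Ugt35b spanned 46.5 to 495.6 TPM, or 10.7-fold, and those of the lower expressed Ugt86De spanned 0.401 to 7.45 TPM, or 18.6-fold. All 52 members were found in the annotation, 35 under their current symbol and 17, all Ugt genes, under an older one (Ugt35b is now Ugt35B1 and Ugt86De is Ugt35E2). By gene order, counting members within 10 genes of each other as neighbours, 31 of the 52 lie in 3 large clusters: the 11 GstD genes, GstE1 to GstE10, and the 10 genes Ugt35a, Ugt35b and Ugt86D. Neighbours in such a cluster are close copies, and how the authors' counting split shared reads between them is not given in the sources used here. The estimated counts of 51 members were whole numbers within 0.02, while GstT2 was not whole in 63 of the 72 libraries.

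Ugt35b had a high level around lights on and a low one around lights off. Its TPM were 358, 345 and 443 at ZT0, then 237, 323 and 296 at ZT4, and 163, 139 and 176 at ZT8. At ZT12 they were 53.6, 53.1 and 49.0, and at ZT16 44.4, 49.6 and 59.5, before 208, 215 and 248 at ZT20. Every library at ZT0 lay above every library from ZT8 on, and the ZT12 and ZT16 libraries overlapped and lay below all others. A 24 h cosine had its peak at ZT1.23 and a peak-to-trough distance of 3.12 on the log2 scale. Because the gene was singled out for this course, its values are a description and no p is given for it.

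Ugt35b was also lower in R85C10, the line dissected at ZT12, than in the lines dissected at ZT0. In the TrpA1 29C groups, Ugt35b had 39.5 to 56.3 TPM in R85C10, dissected at ZT12, against 280.1 to 475.5 TPM in the 4 wake-promoting lines, dissected at ZT0. In the GAL4 control 29C groups it had 50.8 to 55.1 TPM in R85C10 against 345 to 479 TPM, and in the TrpA1 21C groups 102 to 136 TPM in R85C10 against 340.3 to 575 TPM. The log2 differences of the means were -2.91, -2.93 and -2.02, beside -2.86 for undisturbed ZT12 over ZT0. Of the 34 members compared, Ugt86De was the other that lay below in all 3 kinds of group, with 0.448 to 1.30 TPM against 2.58 to 5.74 TPM in the TrpA1 29C groups. Line and time of dissection cannot be told apart in these values, nor can the length of the shift in the 29 °C groups (12 h in R85C10, 3 h in the others).

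The genes whose log2 CPM followed Ugt35b most closely over the 18 undisturbed libraries were Inx2, a gap junction protein (Pearson r 0.967), CG2277 (0.940), CG6040 (0.934), Dip-B, a dipeptidase (0.923), and cry, the blue-light receptor of the clock (0.921). These r are descriptions over libraries that share groups. Among members, GstE2 ranked 8 with r 0.889, Ugt86De 13 with 0.863, GstE1 15 with 0.843 and Ugt35a 16 with 0.831, while GstS1 had -0.42 and GstO2 -0.40.

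Over the 6 zeitgeber times, 8 of the 34 members tested differed (edgeR quasi-likelihood F-test with Benjamini-Hochberg adjustment over all genes of the fit, threshold 0.05), beside 15.1% of all genes tested. Ugt35b is among the 8 and, having been chosen for its course, adds no support; without it 7 of 33 passed, 3 of 7 Ugt genes and 4 of 26 glutathione transferases. All 7 lay in the 3 large clusters, where 17 members were tested besides Ugt35b. Of the 16 tested elsewhere 0 passed in this fit, although GstE12 and GstO1 passed in DESeq2 (adjusted p 0.0168 and 0.0451) and 3 did with the replicate number as a block. At an unadjusted p under 0.05 there were 10.

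**Figure D2:**
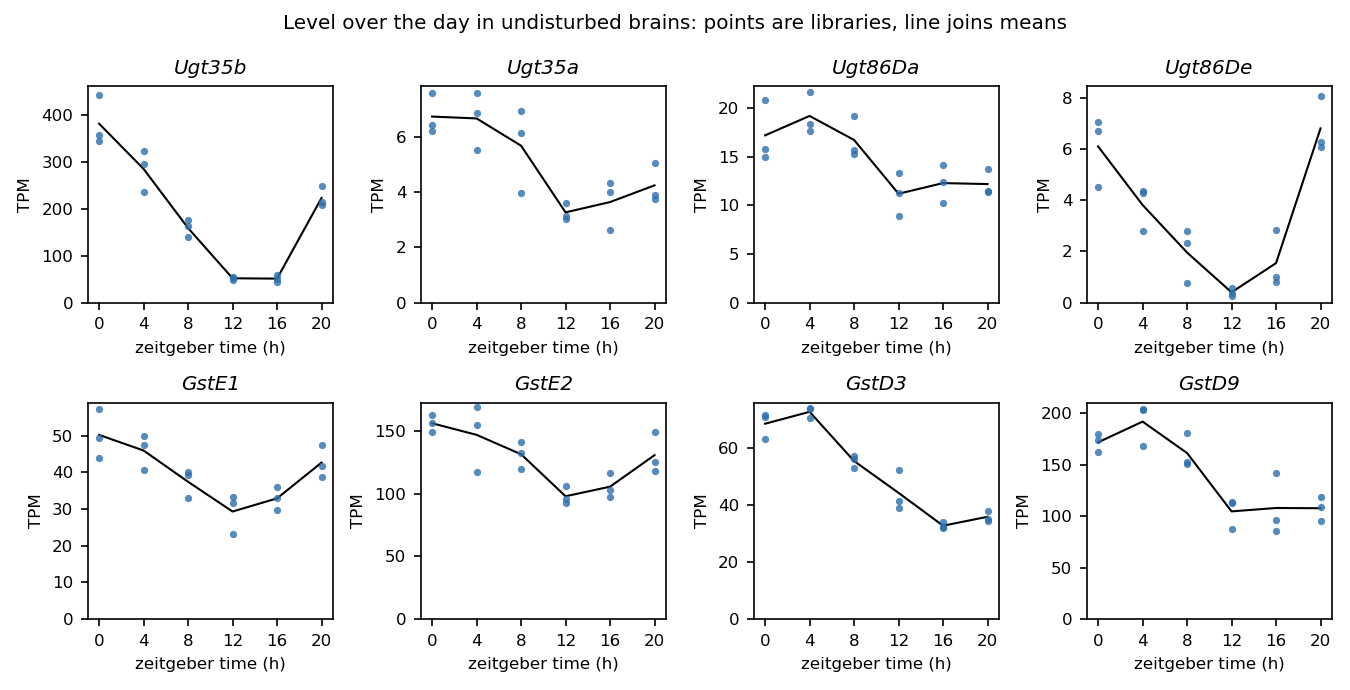
Level in TPM of the 8 members that differed over zeitgeber time (hours) in undisturbed brains; points are libraries, and lines join the means of 3. Each gene has its lowest mean at ZT12 or ZT16, and GstD3, GstD9 and Ugt86Da have their highest at ZT4.

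Of the 8 genes, Ugt86De had the largest fitted peak-to-trough distance, on a far lower level than Ugt35b. Its TPM were 7.07, 4.51 and 6.71 at ZT0, then 2.80, 4.36 and 4.28 at ZT4, 2.78, 0.763 and 2.32 at ZT8, and 0.373, 0.580 and 0.249 at ZT12. They were 0.792, 0.988 and 2.85 at ZT16 and 6.25, 6.09 and 8.07 at ZT20 (edgeR adjusted p 7.18e-05). It was already high at ZT20, and its cosine peaked at ZT23.5 with a peak-to-trough distance of 3.34 (log2). Ugt35a, the neighbour of Ugt35b, had 6.19 to 7.58 TPM at ZT0, 5.53 to 7.57 at ZT4, 3.94 to 6.92 at ZT8, 3.02 to 3.61 at ZT12, 2.61 to 4.31 at ZT16 and 3.76 to 5.05 at ZT20 (edgeR adjusted p 0.0206). Ugt86Da had 15.0 to 20.9, 17.6 to 21.7, 15.3 to 19.2, 8.93 to 13.39, 10.3 to 14.2 and 11.4 to 13.7 TPM at these times (edgeR adjusted p 0.0246). All ZT12 libraries of both genes lay below all ZT0 and ZT4 libraries.

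GstD3 gave the smallest p of the glutathione transferases. Its TPM were 71.0, 63.1 and 71.8 at ZT0, 70.6, 74.0 and 73.9 at ZT4, 56.4, 53.1 and 57.1 at ZT8, and 39.1, 41.5 and 52.5 at ZT12. They were 32.2, 32.0 and 34.2 at ZT16 and 34.5, 38.1 and 35.3 at ZT20 (edgeR adjusted p 2.82e-05), so that unlike Ugt35b it was still low at ZT20, and its cosine peaked at ZT3.60. GstD9, from the same cluster, had 162 to 179.5 TPM at ZT0, 168 to 204 at ZT4, 150.5 to 180.2 at ZT8, 87.1 to 113 at ZT12, 85.4 to 142 at ZT16 and 95.3 to 119 at ZT20 (edgeR adjusted p 0.00858; cosine peak ZT3.19). GstE2 had 149.6 to 163 TPM at ZT0, 117 to 169 at ZT4, 120.3 to 142 at ZT8, 92.5 to 106 at ZT12, 97.9 to 117 at ZT16 and 118 to 149.6 at ZT20 (edgeR adjusted p 0.00514). GstE1 had 44.0 to 57.4, 40.6 to 50.01, 33.0 to 40.1, 23.2 to 33.2, 29.7 to 36.2 and 38.8 to 47.6 TPM at these times (edgeR adjusted p 0.00682). The cosines of GstE2 and GstE1 peaked at ZT0.649 and ZT0.00144, and the peak-to-trough distances of these 4 genes lay between 0.64 and 1.04 (log2).

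The ZT20 libraries stood apart in mitochondrial share, and their part in these courses was measured by leaving them out. Neuron markers summed to 2440 to 2953 TPM at ZT20 and 3265 to 4025 TPM at the other times. Over the undisturbed libraries, fat body markers summed to 265.5 to 4010 TPM and photoreceptor markers to 93.6 to 5421 TPM. The part of these marker sums in the courses was not tested. Without ZT20, 3 members passed (GstD3, Ugt35b and Ugt86De), beside 0.522% of genes. Without ZT20 and with the replicate block all 8 did, beside 2.77% of genes. With a 24 h cosine and sine in place of 6 free times, the same 8 members passed, beside 1.72% of genes. With 6 free times and no block, GstE12, GstT1, GstO2 and GstS1 did not pass, with edgeR adjusted p of 0.175, 0.282, 0.346 and 0.466; the block turned the call for GstE12 and GstS1. Of the related genes, maf-S, Gclc and Gclm passed among 8 genes of the Keap1 pathway and glutathione supply, in the fit with all 6 times. The edgeR adjusted p was 1.56e-06 for Gclc, the catalytic subunit of the enzyme that starts glutathione synthesis. Gclc had a mean of 201.7 CPM at ZT20 and means of 129.8 to 148.4 CPM at the other times. Both maf-S and Gclm also had their highest means at ZT20 (83.1 and 46.9 CPM). The dimerisation partner tgo, the conjugate exporter MRP and the sulfotransferase St3 passed as well, and 0 of 8 Ugt genes under other symbols did. The lowest means of tgo and MRP were at ZT20 (51.2 and 167.1 CPM). Results without ZT20 are not given for these related genes.

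Shaking was compared with the undisturbed ZT0 brains, which the 3 durations share and which by their titles belong to the circadian experiment, so differences between the experiments enter each value. Some glutathione transferases passed as higher after shaking, and no Ugt gene passed. At each duration the share of tested members that were higher was no larger than that of all genes. After 3 h, 3 of 32 members tested passed, all higher, beside 23.6% of genes (11.5% higher): GstE12, GstD1 and GstO2. After 6 h, 7 passed, all higher, beside 46.1% (23.7% higher), and after 12 h GstT1 alone did, beside 16.3% (9.12% higher). At an unadjusted p under 0.05 there were 6, 8 and 3.

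GstD1 had 462, 504 and 552 TPM after 3 h of shaking, 539, 574 and 473 after 6 h and 457, 494 and 437 after 12 h, against 426, 402 and 517 at undisturbed ZT0. On the count scale it was 211 ± 17.1 CPM after 6 h and 133 ± 16.5 CPM at ZT0 (SD, n = 3 each), a log2 change of 0.67 (edgeR adjusted p 0.00151), and 0.47 after 3 h (edgeR adjusted p 0.0244). GstE12 had 178, 278 and 233 TPM after 3 h, 199, 182 and 184 after 6 h and 182, 191 and 209 after 12 h, against 160.0, 169 and 199.6 at ZT0. Its log2 changes in CPM were 0.66 after 3 h (SE 0.136, edgeR adjusted p 0.00524) and 0.52 after 6 h (edgeR adjusted p 0.00879; 83.8 ± 2.7 against 58.5 ± 6.77 CPM). For both genes the TPM of shaken and undisturbed libraries overlapped at all 3 durations.

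The theta member GstT1 had 42.5, 46.9 and 46.5 TPM after 3 h, 38.5, 53.7 and 37.1 after 6 h and 49.8, 42.9 and 50.6 after 12 h, against 43.2, 44.0 and 38.9 at ZT0. Its log2 change in CPM was 0.46 after 6 h (edgeR adjusted p 0.0113) and 0.43 after 12 h (edgeR adjusted p 0.0439; 21.8 ± 0.347 against 16.2 ± 1.28 CPM, SD, n = 3 each). GstO2 had 76.5, 91.7 and 84.95 TPM after 3 h and 68.7, 73.7 and 76.8 after 6 h, against 84.5, 80.0 and 71.9 at ZT0. Its log2 change in CPM was 0.38 after 3 h (edgeR adjusted p 0.0144) and 0.31 after 6 h (edgeR adjusted p 0.0223), but at 6 h the sign turned to -0.17 with a length-trend offset and to -0.11 on log2(TPM + 1). GstE11 had 8.61, 6.07 and 8.96 TPM after 6 h against 3.57, 2.00 and 6.01 at ZT0 (log2 change in CPM 1.29, edgeR adjusted p 0.0254). GstD11 had 18.1, 17.9 and 19.8 TPM against 18.4, 15.8 and 15.9 (0.61, edgeR adjusted p 0.0117), and GstO1 had 9.54, 8.06 and 8.89 TPM against 6.99, 6.08 and 7.81 (0.76, edgeR adjusted p 0.0458).

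These genes are short, and the result of shaking depended on how transcript length was treated. The median member length relative to the median gene was 0.351 for glutathione transferases and 0.857 for Ugt genes. With a per-library offset for the trend of counts with length, 0, 2 and 0 members passed after 3, 6 and 12 h, both of those at 6 h lower. The median log2 change of the members tested was 0.20, 0.30 and 0.03 as counted, beside 0.03, 0.03 and 0.01 over all genes, and -0.07, -0.14 and -0.19 with the offset. On log2(TPM + 1), 1, 1 and 0 members were higher and 5, 5 and 4 lower, beside a median over all genes of -0.21, -0.35 and -0.21. The shares of all genes that passed under these settings are not given here, so the member counts cannot be set beside them. Summed neuron markers moved with shaking too, at 2079 to 2241 TPM after 6 h and 3740 to 3871 TPM at ZT0. Glia markers summed to 2872 to 3158 TPM after 6 h and 4603 to 5014 TPM at ZT0. Fat body markers had 234.6 to 2296 TPM after 3 h and 302.3 to 878.2 TPM at ZT0. Photoreceptor markers had 87.5 to 3949 TPM after 3 h and 160.9 to 2912 TPM at ZT0. The part of these shifts in the member results was not tested. In bulk RNA, fewer cells of a type and less RNA per cell cannot be told apart.

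**Figure D3:**
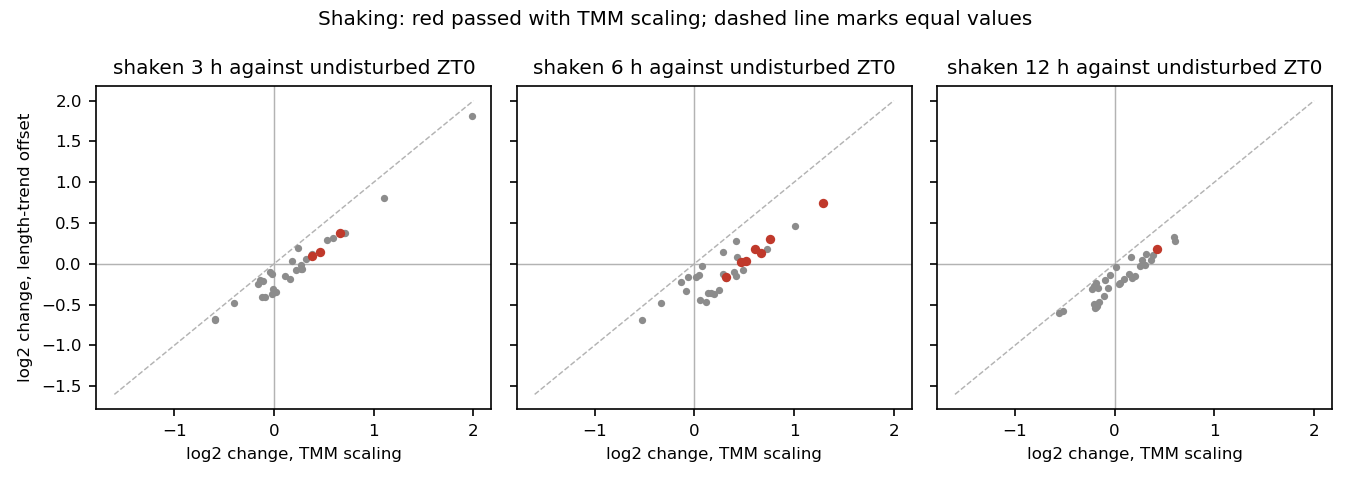
Log2 change of each tested member after 3, 6 or 12 h of shaking against undisturbed ZT0, with TMM scaling on the horizontal axis and with a length-trend offset on the vertical axis. Points are genes, red ones passed with TMM scaling, and the dashed line marks equal values; nearly all points lie below it.

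Among the 3 durations themselves, 0 of 32 members passed in edgeR beside 15.8% of genes, with 3 at an unadjusted p under 0.05 and 2 in DESeq2. Ugt35b had 304, 261 and 326 TPM after 3 h, 299, 268 and 303 after 6 h and 273, 307 and 325 after 12 h, against 358, 345 and 443 at ZT0. All 9 shaken libraries lay below the 3 undisturbed ones on the TPM scale, while the log2 change in CPM after 6 h was 0.02. Of the related genes, Gclm, the regulatory subunit of glutamate-cysteine ligase, was higher at each duration (log2 0.45, 0.60 and 0.35), maf-S was higher after 6 and 12 h (0.91 and 0.63), and Gclc was lower after 6 h (-0.17). MRP was lower (-0.27, -0.56 and -0.31) and St3 higher (0.41, 0.50 and 0.43) at each duration, tgo was lower after 3 and 6 h (-0.25 and -0.34), and Clic, which has a glutathione transferase fold, was higher at both (0.32 and 0.29). Mgstl, a microsomal glutathione transferase, was higher (0.42) and gfzf lower (-0.36) after 6 h.

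Activation in R65H02 gave the most member calls of the 5 lines. Against both controls, 8 of 32 members tested passed and all 8 were higher, beside 17.5% of genes in either direction and 7.01% higher. They were GstD1 and GstD9 of the delta cluster, GstE1, GstE3, GstE6 and GstE7 of the epsilon cluster, and Ugt35a and Ugt86Dd. Of the 17 members tested in the 3 large clusters 8 passed, and of the 15 elsewhere 0 did.

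The epsilon member GstE6 had the largest change. It had 131, 130.1 and 147 TPM in TrpA1 29C brains, against 33.7, 50.8 and 52.9 in the GAL4 control and 27.0, 36.5 and 39.7 at 21 °C. Its counts were 46 ± 4.93 CPM against 12.1 ± 2.87 and 11.1 ± 2.51 CPM (SD, n = 3 each), log2 changes of 1.95 (edgeR adjusted p 7.95e-06) and 2.06 (edgeR adjusted p 8.1e-06). GstD1, the most abundant member, had 951, 1112 and 1202 TPM, against 429, 415 and 456 in the GAL4 control and 363, 365 and 555 at 21 °C. Its log2 changes were 1.69 (edgeR adjusted p 0.000797) and 1.41 (edgeR adjusted p 0.0042), from 421 ± 69.9 against 130 ± 7.08 and 158 ± 52.8 CPM. For both genes the lowest activated library lay far above the highest control.

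GstE7 had 26.7, 31.7 and 25.2 TPM, against 7.21, 6.53 and 15.4 in the GAL4 control and 8.11, 7.25 and 16.4 at 21 °C (log2 changes 1.92 and 1.45, edgeR adjusted p 0.00124 and 0.0103). GstE3 had 36.8, 54.0 and 57.4 TPM, against 25.3, 17.7 and 24.6 in the GAL4 control and 18.8, 25.5 and 29.6 at 21 °C (1.49 and 1.08, edgeR adjusted p 0.000264 and 0.00449). GstE1 had 133, 125 and 128 TPM, against 66.2, 74.9 and 86.1 in the GAL4 control and 74.3, 83.5 and 101 at 21 °C (1.13 and 0.64, edgeR adjusted p 3.03e-05 and 0.00355). These 3 neighbours of GstE6 were higher in each activated library than in any control library.

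GstD9 had 202, 191 and 183 TPM, against 98.8, 122 and 118 in the GAL4 control and 111, 101 and 148 at 21 °C (log2 changes 1.13 and 0.74, edgeR adjusted p 0.000261 and 0.00665). Ugt35a had 9.73, 9.34 and 7.58 TPM, against 4.65, 6.72 and 4.72 in the GAL4 control and 4.37, 6.09 and 5.42 at 21 °C (1.09 and 0.83, edgeR adjusted p 0.00109 and 0.0106). Ugt86Dd had 19.2, 23.7 and 25.0 TPM, against 13.0, 13.8 and 15.7 in the GAL4 control and 12.0, 20.8 and 15.5 at 21 °C (1.05 and 0.59, edgeR adjusted p 0.000431 and 0.0249). Ugt86Dd overlapped its 21 °C control in TPM, its call there was lost without any 1 of 3 single libraries, and its adjusted p on log2(TPM + 1) with limma was 0.0623. GstD9, GstE1 and Ugt35a also differed over zeitgeber time, 3 of the 8 genes in each list. Ugt35b itself had 378, 462 and 476 TPM, against 348, 382 and 403 in the GAL4 control and 340.3, 484 and 448 at 21 °C. It passed against the GAL4 control (0.59, edgeR adjusted p 0.00805) but not at 21 °C. The call against the GAL4 control was lost with the length-trend offset (edgeR adjusted p 0.093) and on log2(TPM + 1) (limma 0.177). With offset and replicate block it stayed (edgeR adjusted p 0.000275).

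**Figure D4:**
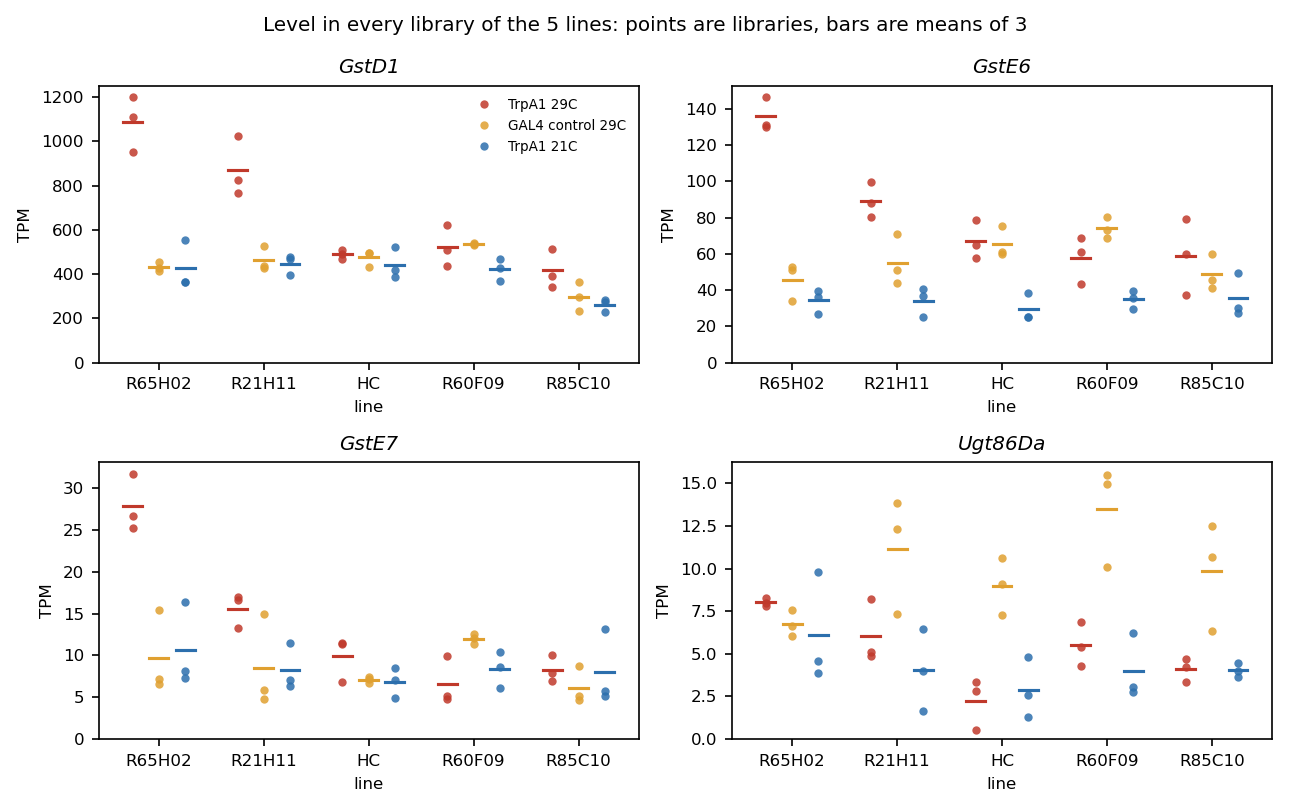
Level in TPM of GstD1, GstE6, GstE7 and Ugt86Da in each library of the 5 lines, in the order TrpA1 29C (red), GAL4 control 29C (yellow) and TrpA1 21C (blue); points are libraries and bars are means of 3. GstD1 and GstE6 stand above both controls in R65H02 and R21H11, and the mean of Ugt86Da is highest in the GAL4 control of R21H11, HC, R60F09 and R85C10.

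Against the GAL4 control alone, 25 of 32 members were higher in R65H02 TrpA1 29C and none was lower, beside 53.8% of genes (26.9% higher), with 28 at an unadjusted p under 0.05. The median member change was 1.02 on the log2 scale, beside 0.05 over all genes, and 15 members stayed past the threshold with the length-trend offset. Against 21 °C, 10 passed beside 30.3% of genes (13.5% higher, 16.9% lower): the 8 above, GstZ2 higher (log2 0.61) and GstE13 lower (-0.62). The other members past the GAL4 control were GstE9 (2.07), GstE8 (1.94), Ugt86Di (1.83), GstD11 (1.2), GstE12 (1.18), Ugt36Bc (1.16), GstE11 (1.09), GstE2 (1.0), GstO3 (0.89), GstT3 (0.79), GstS1 (0.78), GstD3 (0.75), Ugt58Fa (0.68), GstO2 (0.57), GstT1 (0.54) and GstT2 (0.52). Both groups with the channel lay apart from the GAL4 control in neuron and muscle marker sums. Their fat body sums overlapped the control, as did surface glia sums at 21 °C. Neuron markers summed to 2163 to 2569 TPM in TrpA1 29C, 4168 to 4392 TPM in the GAL4 control and 2552 to 3112 TPM at 21 °C, with mitochondrial shares of 4.99%, 2.21% and 3.39%. The 7 fat body markers (Fbp2 at 0 throughout) summed to 503.3 to 1729, 125.7 to 851 and 201 to 1421 TPM, the 7 muscle markers to 124 to 171, 42.3 to 59.8 and 106 to 113 TPM, and the 5 surface glia markers to 284 to 299.8, 227 to 252 and 224 to 367 TPM. Their part in the member changes was not tested.

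Genes around both enzyme families moved in R65H02 as well. Of the 8 genes of the Keap1 pathway and glutathione supply, 5 were higher against both controls: maf-S (log2 1.02 and 0.93), Gclm (0.67 and 0.39), the thioredoxin reductase Trxr-1 (0.25 and 0.31), and GSS with CG32495 (0.31 and 0.32). GSS and CG32495 have equal counts in all 72 libraries and cannot be told apart, so they are a single measurement within the 5 and the 8. Gclc was lower against the GAL4 control (-0.29). UGP, which makes UDP-glucose, was higher against both controls (0.41 and 0.59), and sgl, which oxidises it, against the GAL4 control (0.32). MRP was lower against both (-0.51 and -0.26), and Mdr65, an exporter of the blood-brain barrier, was higher against the GAL4 control (1.30). Hr96 (-0.31 and 0.31), CG17323 (0.73 and -0.50) and St3 (0.37 and -0.57) passed with opposite signs against the GAL4 control and at 21 °C. Only against the GAL4 control did tgo (-0.44), Ef1gamma (0.16), Clic (0.32) and Dot (1.5) pass, and only at 21 °C did se (2.39) and gfzf (0.80).

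In R21H11, 2 of 32 members passed against both controls, GstD1 and GstE6, both higher, beside 1.45% of genes (0.754% higher). GstD1 had 826, 1023 and 768 TPM in TrpA1 29C brains, against 429, 437 and 528 in the GAL4 control and 476, 396 and 469 at 21 °C (log2 changes in CPM 1.41 and 1.11, edgeR adjusted p 0.00351 and 0.0236). GstE6 had 87.9, 99.8 and 80.2 TPM, against 43.7, 50.9 and 71.0 in the GAL4 control and 40.5, 24.9 and 36.6 at 21 °C (1.19 and 1.52, edgeR adjusted p 0.00544 and 0.0135). In both genes all 3 activated libraries lay above all 6 control libraries. Without any 1 of the 21 °C libraries GstD1 lost its call at 21 °C, and GstE6 lost it there without replicate 2 and against the GAL4 control with the length-trend offset (adjusted p 0.157).

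Against the GAL4 control alone, 16 members were higher in R21H11 TrpA1 29C, beside 47.2% of genes (25.1% higher), with 18 at an unadjusted p under 0.05. Besides GstD1 and GstE6 they were GstE11 (log2 2.50), GstE8 (1.64), GstE7 (1.34), GstO1 (1.34), Ugt36Bc (1.08), GstO3 (1.03), GstE12 (1.02), GstE1 (0.90), GstE3 (0.81), GstD9 (0.72), GstE2 (0.71), GstD11 (0.68), GstO2 (0.63) and GstT1 (0.52). With the length-trend offset 2 were higher and 1 lower, and on log2(TPM + 1) 7 were higher and 3 lower, so these values rest on the treatment of length. At 21 °C only the 2 named above passed, beside 3.03% of genes (1.48% higher), with 11 at an unadjusted p under 0.05. Neuron markers summed to 1358 to 2460 TPM in TrpA1 29C, 4052 to 4322 TPM in the GAL4 control and 2292 to 2865 TPM at 21 °C, with mitochondrial shares of 4.501%, 2.08% and 4.30%. The 7 fat body markers (Fbp2 at 0 throughout) summed to 744.5 to 1779, 73.6 to 580.5 and 98.1 to 1014 TPM, and the 7 muscle markers to 88.2 to 149, 51.7 to 104 and 70.6 to 96.1 TPM. Glia markers summed to 2924 to 4070, 4747 to 4871 and 4214 to 4694 TPM, and those of surface glia to 232 to 352, 232 to 393 and 127 to 339 TPM. The part of these markers in the rise of GstD1 and GstE6 was not tested. Of the related genes, maf-S was higher against both controls (1.11 and 0.86). Against the GAL4 control, Gclm (1.04), GSS with CG32495 (0.50), Trxr-1 (0.33), Mgstl (0.61), St3 (0.38), CG4302 (0.87) and CG17323 (0.66) were higher, and MRP (-0.71), tgo (-0.59) and Gclc (-0.32) lower.

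**Figure D5:**
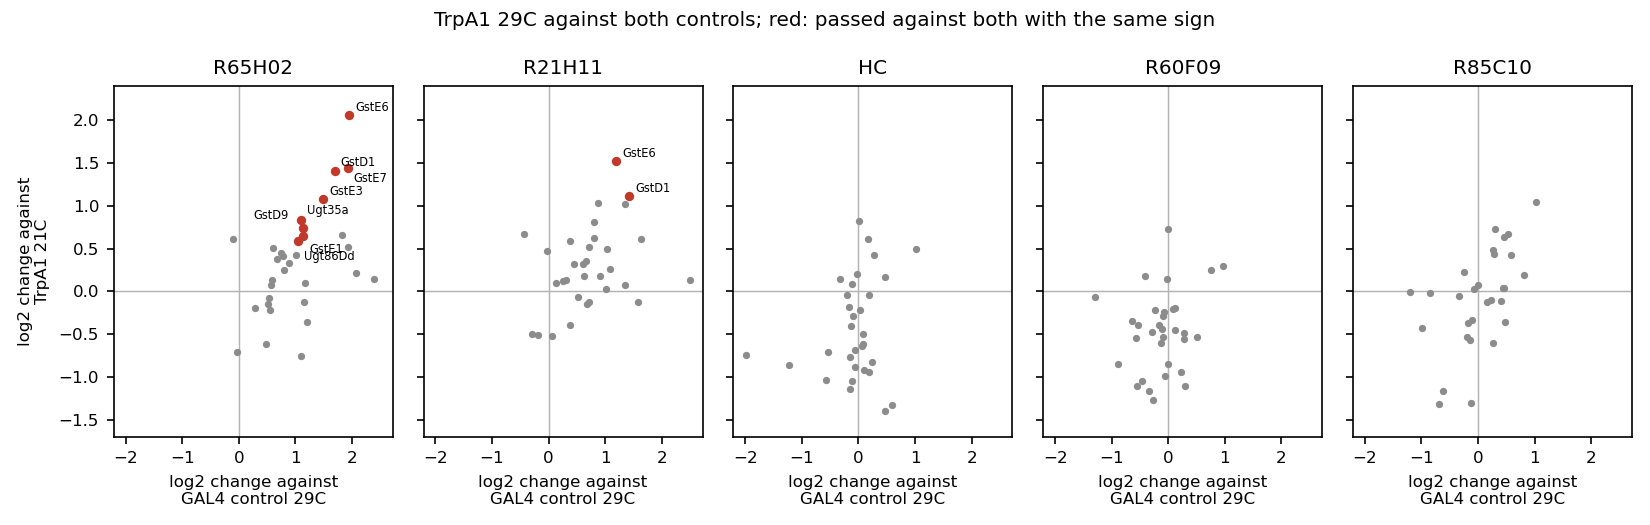
Log2 change of each tested member in TrpA1 29C against GAL4 control 29C (horizontal axis) and against TrpA1 21C (vertical axis), 1 panel a line. Points are genes, and red ones passed against both controls with the same sign: 8 in R65H02, 2 in R21H11 and 0 in HC, R60F09 and R85C10.

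In HC, R60F09 and R85C10 no member passed against both controls in edgeR, beside 0.523%, 0.0898% and 0.955% of genes, and DESeq2 gave 0, 1 and 0. Against the GAL4 control, 0 of 31, 0 of 32 and 0 of 29 passed, beside 0.989%, 0.247% and 1.44% of genes, with 5, 7 and 6 at an unadjusted p under 0.05. The nearest were Ugt86Da in R85C10 (log2 -1.2, edgeR adjusted p 0.061), Ugt86De in HC (-1.23, 0.073) and Ugt35b in R60F09 (-0.55, 0.137). In the same contrast, 0 genes of the 7 related lists passed in these 3 lines.

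Against 21 °C these lines did show member calls, mostly toward lower levels. In R60F09, 11 of 32 passed beside 44.7% of genes (22.3% higher, 22.4% lower), GstZ2 higher (log2 0.73) and 10 lower. Ugt35b had 287, 297 and 396 TPM in TrpA1 29C brains, against 479, 448 and 475 in the GAL4 control and 409.6, 502 and 575 at 21 °C, a change at 21 °C of -1.11 (edgeR adjusted p 8.64e-05). The other lower ones were GstE12 (-1.27), GstE2 (-1.16), GstE13 (-1.10), Ugt36Bc (-1.05), GstO1 (-0.99), GstT1 (-0.85), GstT2 (-0.61), GstE1 (-0.53) and GstO2 (-0.46). With the length-trend offset 4 were higher and 4 lower, and GstO2 turned to 0.03. Neuron markers summed to 3741 to 4037 TPM in TrpA1 29C, 3642 to 4080 TPM in the GAL4 control and 1676 to 2852 TPM at 21 °C, with mitochondrial shares of 1.84%, 2.16% and 6.05%.

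In HC, 17 of 31 members passed against the group labelled TrpA1 21C, beside 33.5% of genes (15.8% higher, 17.6% lower), 2 higher and 15 lower. GstZ2 (log2 0.62) and GstE6 (0.82) were higher. Ugt35b had 316, 351 and 383 TPM in TrpA1 29C brains, against 445, 358 and 374 in the GAL4 control and 449.7, 479 and 478 in the 21 °C group (-0.77, edgeR adjusted p 0.000751). GstE12 had 131, 141 and 137 TPM, against 144, 139.5 and 172 in the GAL4 control and 234, 209 and 279 at 21 °C (-1.14, edgeR adjusted p 0.000331). The remaining lower members were GstE11 (-1.33), GstO1 (-1.05), Ugt86Di (-1.03), GstE13 (-0.94), Ugt36Bc (-0.92), GstD3 (-0.89), Ugt86De (-0.87), Ugt86Dd (-0.71), GstT1 (-0.68), GstE1 (-0.64), GstT2 (-0.61), GstE2 (-0.50) and GstO2 (-0.40). With the length-trend offset 3 were higher and 9 lower. Neuron markers summed to 3668 to 4090 TPM in TrpA1 29C, 3702 to 4133 TPM in the GAL4 control and 1936 to 3196 TPM at 21 °C, with mitochondrial shares of 1.98%, 2.44% and 4.06%.

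In R85C10, whose flies were dissected at ZT12, 7 of 29 members passed against 21 °C, beside 18.7% of genes (9.44% higher, 9.27% lower). Ugt35b had 43.6, 39.5 and 56.3 TPM in TrpA1 29C brains, against 53.2, 50.8 and 55.1 in the GAL4 control and 104, 102 and 136 at 21 °C. In CPM it was 33.9 ± 6.14 against 84.3 ± 13 at 21 °C (SD, n = 3 each), -1.31 on the log2 scale (SE 0.137, adjusted p in edgeR 3.9e-05). Both groups shifted to 29 °C were below every library kept at 21 °C, and the undisturbed ZT12 brains, kept at 25 °C, had 49.0 to 53.6 TPM. Ugt36Bc (-1.32), GstO1 (-1.16), GstD3 (-0.60) and GstE13 (-0.56) were lower too, and GstD9 (0.63) and GstZ2 (0.48) were higher.

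Of the related genes at 21 °C, gfzf was higher and St3 lower in HC (log2 1.06 and -0.68), R60F09 (1.25 and -0.84) and R85C10 (0.52 and -0.81). In HC and R60F09, se (3.63 and 2.58), Hr96 (0.45 and 0.63) and MRP (0.43 and 0.65) were higher, and Gclm (-0.45 and -0.61), Mgstl (-0.67 and -0.65), CG17323 (-0.89 and -0.77) and CG4302 (-1.01 and -0.71) lower. In 1 line each, cnc was higher (0.28, R60F09), sgl lower in HC (-0.27) and higher in R85C10 (0.32), CG30438 (-4.89) and CG3797 (-0.33) lower in HC, and in R85C10 Trxr-1 was higher (0.36) and tgo lower (-0.40).

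The lines also differed among their GAL4 controls, which lacked the channel and were shifted to 29 °C. Among the GAL4 control 29C groups of the 4 wake-promoting lines, 8 of 29 members differed, beside 13.6% of genes, with 16 at an unadjusted p under 0.05. GstD9 had 208.6, 179.8 and 226 TPM in HC, against 114, 109.6 and 128 in R21H11, 98.8, 122 and 118 in R65H02, and 128, 143 and 129 in R60F09 (edgeR adjusted p 5.16e-06). Ugt86Dd had 44.5, 32.0 and 38.6 TPM in HC, against 13.0 to 26.1 in R21H11, 13.0 to 15.7 in R65H02 and 22.3 to 27.1 in R60F09 (edgeR adjusted p 0.000875). For both, every HC library lay above every library of the other lines.

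Ugt86Dd stood out in the same way in other libraries. At 21 °C it had 36.2, 32.8 and 32.2 TPM in HC, against 10.9 to 17.95 in R21H11, 12.0 to 20.8 in R65H02 and 11.9 to 17.4 in R60F09, and it was the 1 of 33 members that differed there (edgeR adjusted p 0.0235), beside 1.06% of genes. GstS1 was highest in the R60F09 GAL4 control, at 52.0 to 56.1 TPM, against 29.3 to 48.7 in R21H11, 31.5 to 34.4 in R65H02 and 34.8 to 44.5 in HC (edgeR adjusted p 0.00574). The others that differed among the GAL4 controls were Ugt86Da (edgeR adjusted p 0.0155), GstD1 (0.019), GstE6 (0.024), Ugt86De (0.027) and Ugt86Di (0.0369). Of the related genes, Mgstl and the Ugt genes CG15661, CG17322, CG17323 and CG4302 differed among these controls, and 0 of the 7 lists had a call at 21 °C.

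Whether activation acted differently in the 4 wake-promoting lines was tested directly with an interaction term. The change differed among lines for 20 of 34 members against the GAL4 control, beside 36.7% of genes, and for 19 against 21 °C, beside 41.6%. With both controls, 15 passed, beside 30.0% of genes, 11 of them among the 19 tested in the 3 large clusters and 4 among the 15 elsewhere. GstE6 and GstD1 gave the smallest values, with the larger of their edgeR adjusted p at 0.000471 and 0.000501, and each passed against both controls in R65H02 and R21H11 and in neither HC nor R60F09.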

How the data were processed

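The authors deposited a table of estimated counts (expected counts) per gene and a table of TPM for the same genes and 72 libraries. Per the labels, a PicoPure kit gave the RNA and the NEBNext Ultra II kit the libraries. Kallisto 0.46.1 is named in the submitters' processing notes, and its settings, the annotation and the genome build are not given in the sources used here. All columns were mapped to labelled samples (0 unmapped). Of the estimated counts, 89.0% lay within 0.02 of a whole number, and they were rounded. No sequence or coordinate is printed.

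Counts were fitted in edgeR 4.0.16 under R 4.3.3 (filterByExpr, TMM, robust quasi-likelihood F-test, Benjamini-Hochberg over all genes of a fit, threshold 0.05): shaken groups with undisturbed ZT0, the 6 undisturbed groups, each line, the 4 wake-promoting lines' GAL4 controls, their TrpA1 21C groups, and those lines together for the interaction. A line call needed the same sign and a pass against both controls, and an interaction call a pass with each. The members and lists were chosen with earlier results of these data known. Values over the libraries are given for the most abundant member of each class and, per comparison, in every library for up to 8 members past the threshold with the largest change and a mean log2 CPM of at least 0; the other members past it are named with their change. Line contrasts against a single control count as parts of the line's result. GstE12 and Ugt35b in HC and Ugt35b in R60F09 and R85C10 are shown in full as leading members.

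Alternatives were DESeq2 1.42.0, RLE scaling, low-count genes kept, a replicate block, a length-trend offset (a lowess curve with span 0.3 per library on log2 relative length, length taken from estimated count over TPM) with and without the block, limma 3.58.1 on log2(TPM + 1), a 24 h cosine, no ZT20, and leaving out each library. The fits were tested on simulated data. Python 3.11.15, pandas 2.3.3 and matplotlib 3.10.9 were used for tables and figures. Total counts ran from 4175580 to 13435800 with a median of 8437300, and low totals limit the members below 1 TPM.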

Additional observations from a re-analysis of the deposited data

Results flagged for a closer look

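For 15 members the activation effect differed among R65H02, R21H11, HC and R60F09 with either control, by the edgeR interaction test over all genes, beside 30.0% of genes. The value given is the larger of the 2 adjusted p. Of the epsilon class they were GstE6 (0.000471), GstE12 (0.00068), GstE2 (0.000718), GstE1 (0.000852), GstE3 (0.00326) and GstE7 (0.004). The delta members were GstD1 (0.000501) and GstD9 (0.00358), the sigma member was GstS1 (0.0216) and the omega member GstO2 (0.0452). Of the Ugt genes they were Ugt35b (0.00106), Ugt86Dd (0.00425), Ugt86Di (0.00639), Ugt36Bc (0.0332) and Ugt35a (0.0464). Fewer members passed with the length-trend offset or on log2(TPM + 1), as given below. Against the GAL4 control, GstO2 lost its call with the offset (edgeR adjusted p 0.285) and on log2(TPM + 1) (limma adjusted p 0.301). Ugt35a lost it in both settings too (0.0663 and 0.181). The test against 21 °C includes HC TrpA1 21C, which the TrpA1 transcript did not set apart from its GAL4 control.

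GstE6 changed by 1.95 and 2.06 (log2, against the GAL4 control and against 21 °C) in R65H02 and by 1.19 and 1.52 in R21H11. Ugt35b had opposite directions against the GAL4 control, 0.59 in R65H02 and -0.55 in R60F09. Of these the first passed, though not with the length-trend offset alone or on log2(TPM + 1). These lines also differed in marker sums and mitochondrial share between their groups, as given beside each line, and the part of these in the interaction was not tested.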

How the results depend on the processing

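Of 932 values that 48 named member results took under the alternatives, 809 kept direction and side of the threshold, 120 kept direction but lost the threshold and 3 turned direction: GstO2 after 6 h of shaking had -0.166 with the length-trend offset, -0.168 with offset and replicate block and -0.106 on log2(TPM + 1), against 0.31. Counts of members past the threshold moved as follows. Unless printed, the share of all genes passing under an alternative or at an unadjusted p is not given beside member counts. After 3 h of shaking (3) they were 5 with the replicate block, 0 with the offset, 0 with offset and block and 6 on log2(TPM + 1). After 6 h (7) there were 2 with the offset, also with the block, and after 12 h (1) there were 2 with the block, 0 with the offset, also with the block, and 4 on log2(TPM + 1). Among durations (0) DESeq2 gave 2. Over zeitgeber time (8) the block gave 14 beside 26.7% of genes, and leaving out ZT20 gave 3. The 6 added by the block were GstE12 (adjusted p 8.6e-05), GstE6 (0.00356), GstE3 (0.0114), Ugt86Dd (0.0125), GstS1 (0.0333) and GstO1 (0.038), of which GstE12, GstS1 and GstO1 lie outside the 3 large clusters. Among GAL4 controls (8) no low-count filter gave 13 and log2(TPM + 1) 4. Among TrpA1 21C groups (1) DESeq2 gave 2, the block 0 and the offset 3, also with the block. R21H11 (2) gave 1 with the block and 1 with offset and block. The lines at 0 gave 2 in HC with the offset and 1 with offset and block, 1 in R60F09 with DESeq2, with the offset and with offset and block, and 1 in R85C10 with offset and block. The interaction (15) gave 8 with the offset, also with the block, and 8 on log2(TPM + 1). The other alternatives left these counts within 1.5 times.

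Leaving out each library in turn gave 1 to 4 after 3 h of shaking, 3 to 7 after 6 h, 0 to 2 after 12 h and 0 to 2 among durations, 7 to 10 over zeitgeber time, 3 to 12 among GAL4 controls and 0 to 2 among TrpA1 21C groups. It gave 7 to 11 in R65H02, 0 to 2 in R21H11, 0 to 1 in HC, 0 to 2 in R60F09, 0 to 0 in R85C10 and 11 to 16 for the interaction. Ugt86Da over zeitgeber time lost its call in 4 of these fits, GstE11 after 6 h of shaking in 4, GstO1 in 11 and GstT1 after 12 h in 8.

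The labels do not say that equal replicate numbers mark a pair. Over zeitgeber time all 45 same-numbered pairs deviated together (mean r 0.367, lowest 0.0531, against a mean of -0.182 for other numbers), a hint of shared handling, but not every pair passed the r of 0.1 required here, so the block stayed an alternative. Among shaken groups and ZT0 the mean r was 0.0428 (lowest -0.382). With the block GstD1 in R21H11 at 21 °C had an adjusted p of 0.0749 and Ugt86Dd among the 21 °C groups 0.0511. Depth limits the 16 members below 1 TPM, most of which were not tested.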

Other observations

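GstE13, an epsilon gene outside the epsilon cluster, split by temperature in every line on the TPM scale, and it was singled out after its values were seen. In each of the 5 lines all 6 libraries shifted to 29 °C lay below all 3 kept at 21 °C on that scale. In CPM the R21H11 libraries overlapped, with 13.0, 20.2 and 15.8 in TrpA1 29C and 22.1, 18.4 and 23.2 at 21 °C. Over the lines it had 22.2 to 48.0 TPM at 29 °C and 46.5 to 75.2 TPM at 21 °C. In R65H02 it had 29.1, 34.8 and 33.3 TPM in TrpA1 29C, 29.0, 38.9 and 22.2 in the GAL4 control and 50.6, 46.5 and 59.7 at 21 °C. In HC the values were 44.7, 46.9 and 48.0 TPM, against 37.5, 38.8 and 43.0 in the GAL4 control and 67.4, 75.2 and 71.6 at 21 °C. The zeta gene GstZ2 lay the other way in R65H02, HC and R60F09. In R60F09 it had 53.5, 46.2 and 47.5 TPM in TrpA1 29C and 48.7, 39.7 and 59.8 in the GAL4 control, against 13.7, 18.2 and 24.9 at 21 °C. On the TPM scale GstE6 lay above its 21 °C libraries in both 29 °C groups of R21H11, HC and R60F09. In HC it had 57.7 to 78.6 TPM in TrpA1 29C, 59.8 to 75.4 in the GAL4 control and 25.1 to 38.6 at 21 °C. In CPM, R60F09 TrpA1 29C overlapped its 21 °C group (11.4 to 18.2 against 11.1 to 18.4). The R21H11 GAL4 control overlapped too (11.4 to 18.35 against 7.94 to 13.6 CPM at 21 °C).

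Ugt86Da split by labelled genotype in 3 lines. In HC, R60F09 and R85C10 all 6 libraries labelled TrpA1 lay below the 3 GAL4 control libraries. The R21H11 GAL4 control also had the highest mean of its line, 11.2 TPM against 6.06 in TrpA1 29C and 4.02 in TrpA1 21C. In HC the TrpA1 transcript did not set the group labelled TrpA1 21C apart from the GAL4 control. In HC it had 2.84, 3.33 and 0.534 TPM in TrpA1 29C and 4.84, 1.28 and 2.60 in TrpA1 21C, against 7.28, 9.11 and 10.6 in the GAL4 control. In R85C10 it had 4.22, 3.33 and 4.71 TPM in TrpA1 29C and 4.01, 4.48 and 3.62 in TrpA1 21C, against 10.7, 12.5 and 6.37 in the GAL4 control. No test was run for these groupings.

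After 3 h of shaking GstT4 had 11.45, 68.8 and 14.49 TPM, against 6.94, 14.0 and 7.99 TPM at undisturbed ZT0, so that 1 library carried the difference (log2 change in CPM 1.99, edgeR adjusted p 0.0716). The omega gene GstO3 was highest in R60F09 TrpA1 29C, at 32.0, 27.7 and 45.9 TPM (log2 change against the GAL4 control 0.97, not past the threshold).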
